A study of Mus musculus with 6 samples.

Results

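The Hoxd genes are the 9 Hox genes of the mouse cluster on chromosome 2, read here in presomitic mesoderm, the strips of tissue behind the last somite that are cut into new somites. Members were the probe sets whose only annotated symbol is one of these genes, which gave 9 probe sets, 1 for each of the 9 genes, out of 16311 probe sets for 15153 genes. The 3 mutant arrays read embryos of the genotype TCre/+;Taf10flox/flox, which carry the T-Cre driver and have both Taf10 alleles floxed. The 3 control arrays read embryos labelled WT with the genotype Taf10Flox/+ or Taf10flox/flox, so both groups carry floxed alleles. All embryos were of embryonic day 9.5. Each array held a pool of 3 dissected tissues of 17 to 19 somites, and the labels call the pools biological replicates. In the T-Cre line, as background, regulatory sequence of Brachyury drives Cre in the primitive streak and in the mesoderm that leaves it. TAF10 is a subunit of the promoter-binding complex TFIID and of the coactivator SAGA.

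Hox genes encode homeodomain transcription factors that give position along the body axis. In the presomitic mesoderm they switch on in the order in which they lie in the cluster, low paralogue numbers first and high numbers last, and the set that is active decides which vertebra a somite will form. Cdx factors, Wnt and FGF signals and retinoic acid are known inducers, Polycomb proteins keep the silent genes shut, and Hoxd1 has been described in the mouse as transcribed in a stripe that follows the segmentation clock.

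Array medians were alike, between 308 and 318 intensity units. Mutant 3 lay farthest from its group, with a root mean square distance of 0.19 log2 units from the group mean against 0.08 to 0.11 for the other 5 arrays. Of the 2 probe sets annotated to Taf10, one fell (log2 change -0.37, limma adjusted p = 0.040) and the other did not pass (log2 change 0.11, limma adjusted p = 0.530), and neither is known here to read the floxed part of the gene. Of 9 markers of presomitic mesoderm, Tbx6 (log2 change 0.63) and Hes7 (log2 change 0.52) rose and Rspo3 fell by 0.74 on the log2 scale. At an unadjusted p under 0.05 limma gave 5 of the 9 higher, against 11.4% of all probe sets, and 1 lower. Mutant values lay above all control values for 5, against 16.6% of all probe sets, and below all of them for 1, against 15.7%. Their median log2 change was 0.22, against 0.03 over all probe sets. The summed intensity of these 9 markers was 26646 to 28401 in mutants and 23120 to 24017 in controls. Other tissues that hold Hox transcripts gave 0 of 8 markers past the test for neural tube and 0 of 5 for the hindlimb field. Intermediate and lateral plate mesoderm gave 1 of 8, where Lhx1 rose (log2 change 1.05). At an unadjusted p under 0.05 limma gave 0, 0 and 1. Of all probe sets, 5.96% passed the test in either direction and 22.8% had an unadjusted p under 0.05 in limma. Beside these shares, counts of 0 or 1 in lists this short say little. Summed over the 8 neural tube markers, intensity ran from 1445 to 1597 in mutants and from 1361 to 1596 in controls, and over the 8 intermediate and lateral plate markers from 4283 to 5792 in mutants and from 4656 to 5367 in controls. The 5 hindlimb markers summed to 798 to 985 in mutants and to 869 to 959 in controls. Markers of hindgut and surface epithelium (7) and of blood and vessel (6 of 7 measured) gave 0 past limma's test (1 and 0 at an unadjusted p under 0.05), with sums of 1109 to 1321 in mutants and 1229 to 1352 in controls for the first list, and of 3938 to 16559 in mutants and 9347 to 22444 in controls for the second. The low end of the second list was mutant 3, and mutants 1 and 2 summed to 16559 and 15201, within the range of the controls. In both groups, Sox2, Pax6, Olig2, Nkx6-1, Neurog2 and Nkx2-2 had lower mean log2 levels than Hoxa11, at the 35.3 percentile of the probe sets. So did Pax2, Tbx4, Fgf10, Tbx5, Foxa1, Sox17, Cdh1, Epcam, Kdr and Pecam1 of the other lists. With no detection call, readings this low cannot be told from background signal, so alike sums do not show alike tissue content. The part of these tissues in the Hoxd values was not tested. In pooled tissue, fewer cells of a type and less RNA per cell cannot be told apart.

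Of the 9 Hoxd genes, Hoxd1, Hoxd3 and Hoxd9 rose in mutant presomitic mesoderm, 0 fell and 6 did not pass limma's test at an adjusted p under 0.05. Of all probe sets tested, 2.88% were called higher. Values are deposited intensities on a linear scale. Each log2 change is the mutant mean less the control mean, and its standard error (SE) comes from limma. Mutant values lay above all control values for 4 of the 9, against 16.6% of all probe sets, and below all of them for 0, against 15.7% (32.4% in either direction). The log2 change was above 0 for 8 of the 9, against 58.0% of all probe sets. The median log2 change of the 9 genes was 0.21, against 0.03 over all probe sets. At an unadjusted p under 0.05, 4 of the 9 were higher, against 11.4% of all probe sets, and 0 were lower.

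Hoxd1, the most 3′ gene of the cluster and first in the temporal order, had the largest change of the 9. It read 738, 771 and 760.1 intensity units in the mutant pools, against 385, 303 and 463 in the control pools. The mutant pools lay close together and all above the highest control, while the controls themselves spread over 0.61 log2 units. The log2 level was 9.56 ± 0.03 in mutants and 8.56 ± 0.31 in controls (SD, n = 3 each), a 2.0-fold rise (log2 change 1.0, SE 0.14, 95% interval 0.68 to 1.32, limma adjusted p = 0.0101). A rise of at least 1 on the log2 scale was reached by 17 of the 16311 probe sets, or 0.104%. With 3 arrays against 3, a two-sided exact permutation test cannot go below p = 0.1, the value it gave for Hoxd1. Without control 1 the call was lost (log2 change 1.01, limma adjusted p = 0.0691), and with any other array left out the adjusted p lay between 0.0067 and 0.0397. The fit without control 1 called 0.307% of all probe sets, against 5.96% with all arrays.

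Hoxd3, which acts with its group 3 paralogues in the vertebrae of the neck, read 2561, 2541 and 2992 in mutants, against 2067, 2038 and 2156 in controls. Mutant 3 was the highest of the 6 arrays, and mutants 1 and 2 were close to each other and above every control. The rise was 1.29-fold (log2 change 0.37, SE 0.08, 95% interval 0.18 to 0.55, limma adjusted p = 0.0405). Hoxd9, a gene of the middle of the cluster that acts in the lumbar and sacral region and in limbs, read 1057, 1010.0 and 1172 in mutants, against 800.3, 834 and 880.4 in controls. All mutant pools lay above all control pools, with mutant 3 again highest. The rise was also 1.29-fold (log2 change 0.36, SE 0.08, 95% interval 0.18 to 0.54, limma adjusted p = 0.0374). For both genes the exact permutation test gave p = 0.1. Both calls were lost without any one of mutant 1, mutant 2, control 1, control 2 or control 3, with limma adjusted p from 0.0703 to 0.176 for Hoxd3 and from 0.0620 to 0.164 for Hoxd9, and both held without mutant 3 (0.0133 and 0.0178). The log2 change itself moved little, from 0.29 to 0.41 for Hoxd3 and from 0.30 to 0.41 for Hoxd9. With the level of Xist, an RNA of female cells, as a covariate, Hoxd3 (adjusted p = 0.0698) and Hoxd9 (0.0549) did not pass in limma and Hoxd1 did (0.0127). The fit with Xist called 3.44% of all probe sets.

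**Figure D1:**
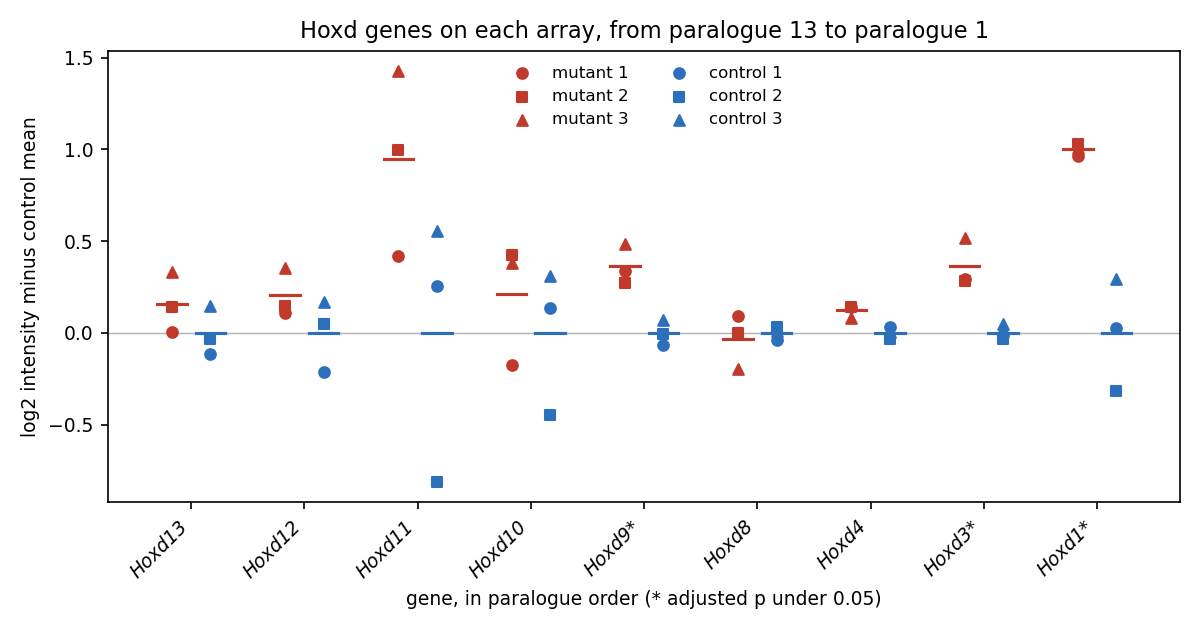
Log2 intensity of each Hoxd gene minus its control mean (y axis) on each of the 3 mutant arrays (red, left) and 3 control arrays (blue, right), from paralogue 13 to paralogue 1 (x axis). Points are arrays, short lines are group means and a star marks a limma adjusted p under 0.05. Mutant points of Hoxd1 sit 1.0 above the control mean on average, while those of Hoxd11 spread over 1.01 log2 units and its controls over 1.37.

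The genes between and beside these 3 moved less. Hoxd4, which patterns the neck and lower hindbrain, read 4267, 4274 and 4100.2 in mutants, against 3951, 3777 and 3886 in controls. The groups did not overlap, but the change was small and did not pass (log2 change 0.12, SE 0.06, 95% interval -0.02 to 0.26, limma adjusted p = 0.279, exact permutation p = 0.1). With arrays weighted by their quality it passed, at a log2 change of 0.15 (limma adjusted p = 0.0309). That fit called 24.1% of all probe sets, against 5.96% in the main fit, with weights of 4.73 for mutant 2 and 0.125 for mutant 3. Hoxd8, a gene of the trunk, read 1259, 1184 and 1030.4 in mutants, against 1151, 1208 and 1189 in controls. Its mutant values fell on both sides of the controls, with mutant 1 highest and mutant 3 lowest. The interval of its log2 change, -0.23 to 0.16 around -0.04, lay wholly below the interval of Hoxd1 and covered neither the estimate of Hoxd3 nor that of Hoxd9. The differences between genes were not tested.

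Hoxd3 and Hoxd4 cannot be fully separated by position. In the RefSeq annotation (GRCm38.p6) the spans of Hoxd3 and Hoxd4 overlap, and the gene of the microRNA miR-10b lies inside both. The exons that the probe sets read are not known here. The probe set for Mir10b read 69.8, 67.5 and 67.0 in mutants, against 95.3, 127 and 51.5 in controls. The mutants lay within the range of the controls, which differed widely (log2 change -0.33, 95% interval -0.97 to 0.32, limma adjusted p = 0.514). The mean level of Mir10b lay at the 11.6 percentile of the probe sets. With no detection call such a reading cannot be told from background signal. Whether the probe set reads the mature microRNA is not known here. The mature 5p strand, from RefSeq at chr2:74726074-74726096 on the plus strand, is shown because this microRNA is part of the cluster; capitals mark the seed, bases 2 to 8, which it shares with miR-10a-5p of the Hoxb cluster.
mmu-miR-10b-5p: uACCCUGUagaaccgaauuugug

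Of the 4 genes at the 5′ end, which pattern the lumbar to tail region and the limbs, 0 passed, against 5.96% of all probe sets in either direction. Hoxd10 and Hoxd11 were the most variable of the 9. Hoxd11, which acts in the sacral vertebrae and the forearm, read 488, 728 and 981 in mutants, against 437, 208 and 536 in controls. Mutant 1 lay among the controls and control 2 far below all other arrays. The controls alone spanned 1.37 log2 units and the mutants 1.01. Its mean change was close in size to that of Hoxd1, at 1.93-fold, but with a wide interval (log2 change 0.95, SE 0.37, 95% interval 0.10 to 1.79, limma adjusted p = 0.174, exact permutation p = 0.2). Without control 2 the log2 change was 0.54 (limma adjusted p = 0.409). With array weights it was 1.10 and passed (limma adjusted p = 0.0192), in the fit that called 24.1% of all probe sets.

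Hoxd10, which patterns the lumbar region and hindlimb nerves, read 788, 1191 and 1157 in mutants, against 976, 652 and 1103 in controls. The groups overlapped, with mutant 1 below controls 1 and 3 (log2 change 0.21, 95% interval -0.30 to 0.72, limma adjusted p = 0.596). Without control 2 its log2 change turned to -0.01. RefSeq gives overlapping spans for Hoxd10 and Hoxd11, so their readings may not be independent. Hoxd12, which acts with its neighbours in the limbs, read 75.9, 78.0 and 90.0 in mutants, against 60.7, 72.8 and 79.0 in controls. Hoxd13, which patterns digits and the genital bud, read 125, 137 and 156 in mutants, against 115, 121 and 138 in controls. Both overlapped, with mutant 3 highest, and neither passed (log2 change 0.20, 95% interval -0.06 to 0.46, for Hoxd12 and 0.16, 95% interval -0.08 to 0.40, for Hoxd13; limma adjusted p = 0.326 and 0.402). Their mean levels lay under the 40th percentile of the probe sets, and with no detection call in the table these readings cannot be told from background signal.

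Low readings on control 2 were shared by other Hox genes, a pattern chosen after the values were seen. Whether they were limited to late-activated genes was not tested. Control 2 was the lowest control for 5 of the 9 Hoxd genes, with Hoxd1, Hoxd3 and Hoxd4 among them, and control 1 for the other 4. The next control was close for Hoxd3 (2038 on control 2, 2067 on control 1) and Hoxd4 (3777 on control 2, 3886 on control 3). The share of all probe sets with their lowest control on each array was not counted, so these counts only describe the arrays. In the other clusters only the late-activated genes were counted. Of the Hoxa, Hoxb and Hoxc genes of paralogue number 10 to 13, 6 of 8 were lowest on control 2 of all 6 arrays, as were 2 of 4 in Hoxd and 18.1% of all probe sets. These shares are not like for like. The 8 genes and the 4 Hoxd genes all had a log2 change above 0, which favours a lowest reading on a control. The 18.1% covers probe sets that changed either way. Of the 8 Hoxa, Hoxb and Hoxc genes, 6 had mean levels under the 40th percentile, where readings cannot be told from background signal. The 2 above it, Hoxa10 and Hoxc10, were both lowest on control 2. Hoxc10, for example, read 1925, 1940 and 2317 in mutants, against 1850.0, 1539 and 2236 in controls. Hoxa11 read 177, 217 and 198 in mutants, against 159, 135 and 178 in controls. Somite counts of single pools are not given in the labels beyond the common range, and their part in this spread was not tested. Control 3 had the highest control reading for 7 of the 9 Hoxd genes, and the share over all probe sets was not counted here either.

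**Figure D2:**
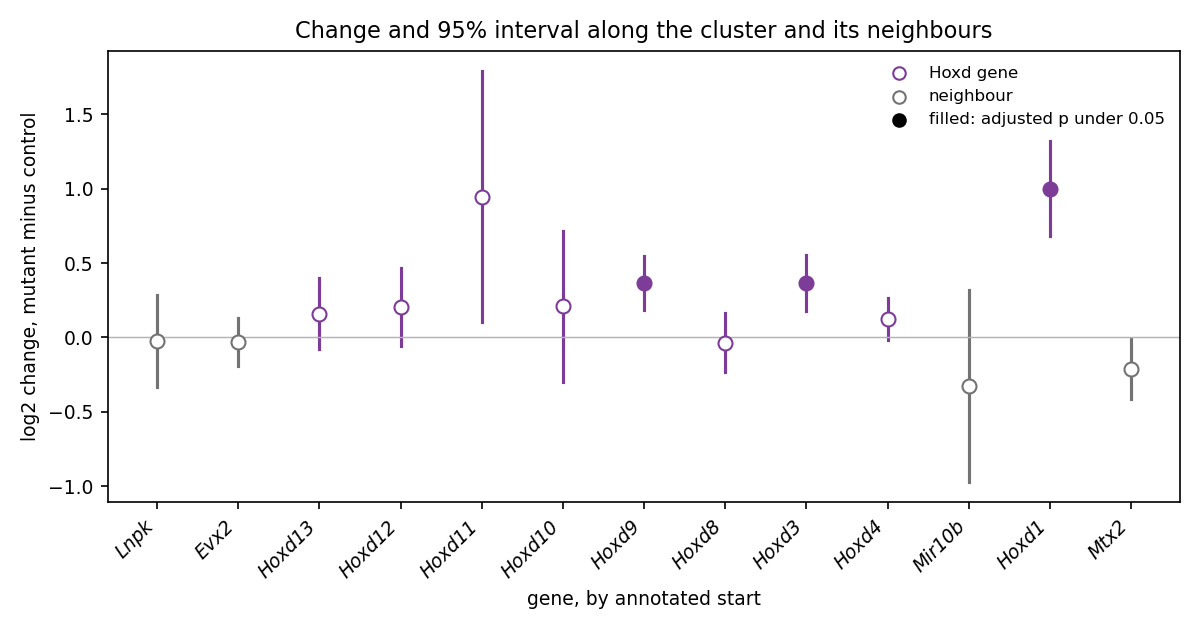
Log2 change, mutant minus control (y axis), with its 95% interval from limma, for the Hoxd genes (purple), Mir10b and the neighbouring genes Lnpk, Evx2 and Mtx2 (grey), in the order of their annotated starts (x axis); filled points have an adjusted p under 0.05. The filled points are Hoxd9, Hoxd3 and Hoxd1, and the widest intervals are those of Hoxd11, Mir10b and Hoxd10.

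Genes that flank the cluster gave 0 of 8 measured past the test in limma in either direction (background 5.96%), with 1 higher and 2 lower at an unadjusted p under 0.05 (background 22.8% in either direction). Their median log2 change was -0.03. Lnpk and Evx2, named for their position after the values were seen, lie beyond Hoxd13 and share long-range enhancers with the 5′ Hoxd genes. They had log2 changes of -0.03 (95% interval -0.34 to 0.28) and -0.03 (95% interval -0.19 to 0.13). Mtx2, a mitochondrial import gene beside Hoxd1, had lower values in all mutants, at 2828, 3045 and 2484 against 3088, 3203 and 3352 in controls, and did not pass (log2 change -0.21, limma adjusted p = 0.201). The estimates for Hoxd1 and this coding neighbour were of opposite sign, and their difference was not tested. Atf2 (log2 change 0.15, limma adjusted p = 0.182) and Nfe2l2 (log2 change -0.27, limma adjusted p = 0.0553), farther out on the same chromosome, did not pass either, and Haglr, Hagl and Hnrnpa3 were not analysed here.

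The promoters of the 3 genes that rose, with that of Hoxd8, which did not pass, show how unlike these starts are. The sequences are the 250 bases before each gene's annotated start in RefSeq (GRCm38.p6), all on the plus strand, at chr2:74762730-74762979 for Hoxd1, chr2:74711743-74711992 for Hoxd3, chr2:74697513-74697762 for Hoxd9 and chr2:74704365-74704614 for Hoxd8. Capitals mark letters of 5 motifs searched on both strands. The sequence TATAAA stands for the box bound by TFIID. The sequence TTTATG is the core of sites of Cdx factors. The sequence AGGTCA is a half-site of retinoic acid receptors. The sequence CACGTG is an E-box and reads the same on both strands. The last of them is CCAAT.
Hoxd1: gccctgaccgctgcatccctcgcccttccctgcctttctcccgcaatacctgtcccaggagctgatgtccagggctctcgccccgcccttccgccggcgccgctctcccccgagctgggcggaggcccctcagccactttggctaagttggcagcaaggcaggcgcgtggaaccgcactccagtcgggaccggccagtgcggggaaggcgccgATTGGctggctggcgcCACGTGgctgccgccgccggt
Hoxd3: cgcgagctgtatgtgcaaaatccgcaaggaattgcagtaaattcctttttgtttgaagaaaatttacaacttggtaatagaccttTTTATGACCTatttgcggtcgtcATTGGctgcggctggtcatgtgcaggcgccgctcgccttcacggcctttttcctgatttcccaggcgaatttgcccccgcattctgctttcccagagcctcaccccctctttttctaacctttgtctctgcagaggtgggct
Hoxd9: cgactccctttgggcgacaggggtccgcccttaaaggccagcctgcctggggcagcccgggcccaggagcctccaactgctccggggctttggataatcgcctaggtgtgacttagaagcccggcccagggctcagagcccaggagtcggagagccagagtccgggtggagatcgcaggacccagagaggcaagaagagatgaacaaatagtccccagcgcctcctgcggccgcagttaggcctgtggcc
Hoxd8: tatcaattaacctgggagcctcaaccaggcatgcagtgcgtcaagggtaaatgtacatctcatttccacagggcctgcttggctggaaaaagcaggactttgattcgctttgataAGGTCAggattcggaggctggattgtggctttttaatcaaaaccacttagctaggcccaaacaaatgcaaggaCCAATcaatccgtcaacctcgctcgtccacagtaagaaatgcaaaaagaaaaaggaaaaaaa

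In these windows the promoter of Hoxd1 held CACGTG from base 21 before the start and CCAAT on the minus strand, and GC made up 71.6% of its bases. Hoxd3 held TTTATG and, on the other strand, AGGTCA, which share letters in the run of capitals, and CCAAT, at 49.2% GC. Hoxd9 held none of the 5 motifs, at 65.2% GC. Hoxd8 held AGGTCA and CCAAT, at 44.4% GC. So 0 of the 5 motifs occurred in all of the windows of the genes that rose. Among 32851 windows of the same length in the table, 12.4% held TATAAA, 10.8% TTTATG, 14% AGGTCA, 6.0% CACGTG and 33.8% CCAAT. Of the 10 Hoxd windows, with 2 for Hoxd11, 2, 3, 4, 4 and 7 held these motifs in the same order. TATAAA was found before Hoxd4, whose change did not pass, and Hoxd13. A match is a run of letters and was not tested as a binding site.

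Hox genes share their paralogue number with genes of the other clusters, which arose by duplication of a common ancestral cluster. Of 28 Hoxa, Hoxb and Hoxc genes measured, 4 rose (background 2.88%) and 1 fell (background 3.08%), and 23 did not pass. The median log2 change was 0.25 over 10 Hoxa genes, 0.33 over 9 Hoxb genes and 0.19 over 9 Hoxc genes, beside 0.21 in Hoxd. Mutant values lay above all controls for 14 of the 28 (background 16.6%) and below all controls for 2 (background 15.7%). In group 1, Hoxb1, which specifies a segment of the hindbrain and is also expressed in the tail bud, read 7855, 7684 and 8912 in mutants, against 5556, 5821 and 6047 in controls. It rose by 0.49 on the log2 scale (SE 0.08, limma adjusted p = 0.0153), a call lost without control 1 (0.0906) or control 2 (0.0925).

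In group 3, Hoxd3 passed, while Hoxb3 (log2 change 0.30, limma adjusted p = 0.204) and Hoxa3 (log2 change 0.02, limma adjusted p = 0.909) did not. In group 4 the clusters went different ways. Hoxa4 rose (log2 change 0.48, limma adjusted p = 0.0351), Hoxc4 fell by 0.56 on the log2 scale (limma adjusted p = 0.0068), and Hoxd4 (log2 change 0.12) and Hoxb4 (log2 change 0.15) did not pass. Hoxc4 read 564, 556 and 511 in mutants, against 815, 814 and 782 in controls, so its groups stood apart in the direction opposite to Hoxa4. The Hoxa4 call was lost without mutant 1 or any one control (limma adjusted p from 0.0731 to 0.155) and with Xist as a covariate (0.0522), and that of Hoxc4 without control 1 (0.0541) or control 2 (0.0569). In group 9, Hoxd9 passed, while Hoxb9 had as large a log2 change with a wider interval (0.37, 95% interval 0.10 to 0.64, limma adjusted p = 0.110). Hoxc9 (log2 change 0.20) and Hoxa9 (log2 change -0.004, 95% interval -0.16 to 0.15) did not pass.

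Group 8 gave -0.04 for Hoxd8 and 0.04 for Hoxc8 on the log2 scale, and neither passed. Hoxa7 (log2 change 0.71) and Hoxb7 (log2 change 0.87) also rose, in a group with no Hoxd member. The Hoxa7 call was lost without control 1 (limma adjusted p = 0.0836) or control 2 (0.0833). In groups 10 to 13, 0 of 4 Hoxd genes and 0 of 8 others passed in limma (background 5.96% in either direction). At an unadjusted p under 0.05 limma gave 1 Hoxd gene (Hoxd11) and 3 others (Hoxa11, Hoxa13 and Hoxc12), all higher in mutants (background 11.4%). These 3 others had mean levels under the 40th percentile, as did Hoxd12 and Hoxd13. Hoxa13 was the nearest to the threshold (log2 change 0.46, limma adjusted p = 0.0503). Differences between paralogues were not tested.

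**Figure D3:**
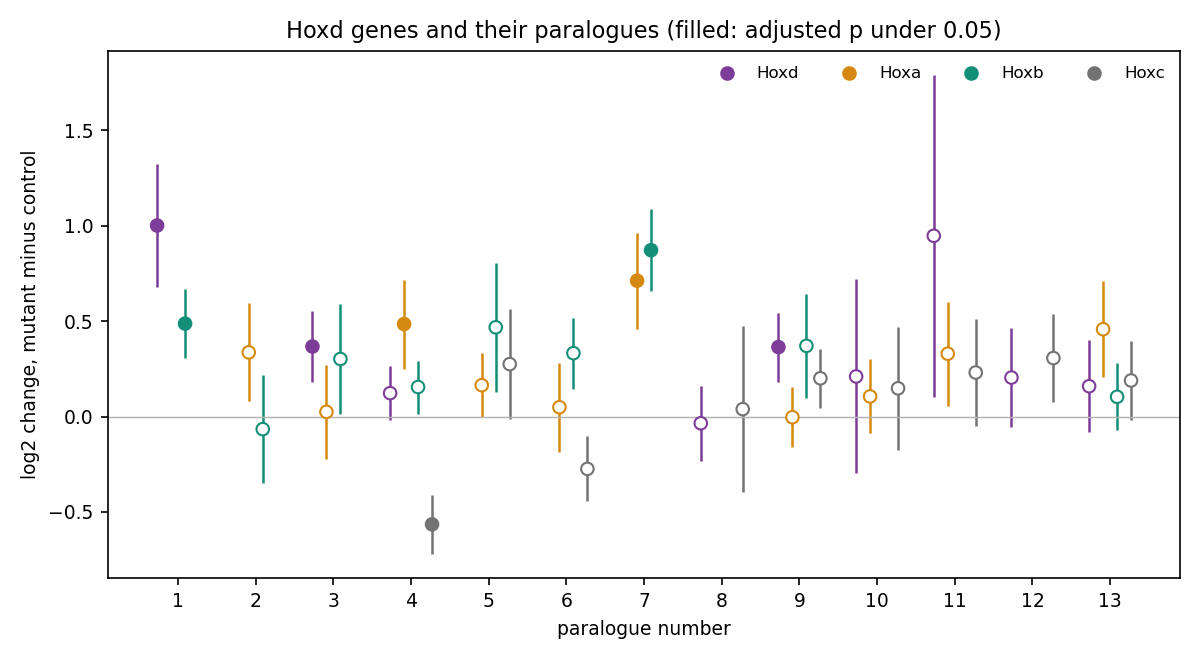
Log2 change, mutant minus control (y axis), with its 95% interval from limma, for every measured Hox gene by paralogue number (x axis) and cluster (purple Hoxd, orange Hoxa, green Hoxb, grey Hoxc); filled points have an adjusted p under 0.05. Hoxd1 at 1.0 has the highest filled point and Hoxc4 at -0.56 the lowest.

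Among 33 measured regulators and cofactors of Hox genes, 1 rose (background 2.88%), 4 fell (background 3.08%) and 28 did not pass, with a median log2 change of -0.003. Cdx1, a caudal-type factor that activates Hox genes of the trunk, rose (log2 change 0.43, SE 0.08, limma adjusted p = 0.0273), while its relative Cdx4 fell by 0.60 on the log2 scale (SE 0.08, limma adjusted p = 0.0091). Cdx1 read 355, 312 and 358 in mutants, against 239, 253 and 270.3 in controls. Cdx4 read 1590.3, 1451 and 1633 in mutants, against 2175, 2416 and 2508 in controls, a shift the opposite way in all pools. The Cdx1 call was lost without mutant 1 or any one control (limma adjusted p from 0.0590 to 0.131), and that of Cdx4 without control 2 (0.0675). Cdx2, named for its role after the values were seen, did not pass (log2 change 0.11, 95% interval -0.15 to 0.38).

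Cyp26a1, which degrades retinoic acid in the tail bud, fell by 0.74 on the log2 scale (limma adjusted p = 0.0064), with 75.6, 70.2 and 80.7 in mutants, against 133, 116 and 129 in controls. Its mean level also lay under the 40th percentile, where signal cannot be told from background, so the size of this fall is uncertain, and without control 1 its limma adjusted p was 0.0501. Aldh1a2, which makes retinoic acid and was named in the same way, differed between mutants, at 207, 418 and 410.3 against 311, 267 and 269.6 in controls (log2 change 0.22, limma adjusted p = 0.622). Its low reading on mutant 1 fell on the array that was the lowest mutant for 5 of the 9 Hoxd genes (Hoxd1, Hoxd10, Hoxd11, Hoxd12 and Hoxd13). The share of all probe sets with their lowest mutant on mutant 1 was not counted. Hoxd12 and Hoxd13 cannot be told from background signal, and the mutants of Hoxd1 spanned only 0.06 log2 units. The match with Aldh1a2 was picked after the values were seen, and a link was not tested. Wnt5a, a ligand needed for tail outgrowth, fell by 0.34 on the log2 scale (limma adjusted p = 0.0272), and Lin28a, an RNA-binding protein that blocks let-7 maturation, fell by 0.42 on that scale (limma adjusted p = 0.0374). The Lin28a call was lost without mutant 2 or any one control and with the replicate block, and that of Wnt5a without any one array other than mutant 3, with limma adjusted p from 0.0508 to 0.159 for Lin28a and from 0.0688 to 0.115 for Wnt5a. With Xist as a covariate both were lost (limma adjusted p = 0.0905 for Lin28a and 0.0679 for Wnt5a). Polycomb and Trithorax genes in the list did not pass, and examples picked for their role after the values were seen had log2 changes of 0.07 for Ezh2, -0.08 for Suz12, -0.04 for Eed and 0.13 for Kmt2a. Named after the values were seen, as the other members with an adjusted p under 0.1, Lin28b (log2 change -0.75, limma adjusted p = 0.0886) and the Hox partner genes Meis1 (log2 change -0.43, limma adjusted p = 0.0554) and Pbx3 (log2 change -0.32, limma adjusted p = 0.0550) missed the threshold.

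**Figure D4:**
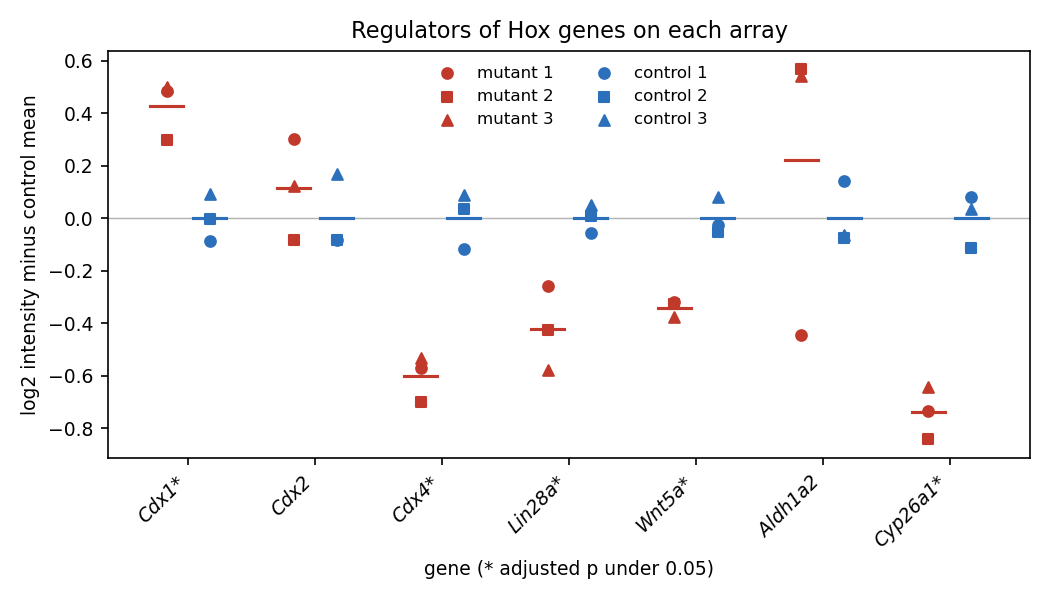
Log2 intensity minus the control mean (y axis) of the 5 Hox regulators past the test (starred) and of Cdx2 and Aldh1a2, on each of the 3 mutant arrays (red, left) and 3 control arrays (blue, right); short lines are group means. Cdx1 lies above its controls on all mutant arrays, Cdx4 and Cyp26a1 below, and Aldh1a2 on both sides.

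By the correlation of log2 values over the 6 arrays, the probe sets most like Hoxd1 were those of H2bc4, a replication-dependent histone gene (Pearson's r = 0.999), Sdhaf3, an assembly factor of the respiratory chain (r = 0.997), and Elf1, an ETS transcription factor (r = 0.997). H2bc4 (log2 change 2.14) and Elf1 (log2 change 1.26) rose between the genotypes, and Sdhaf3 did not pass (log2 change 0.11, limma adjusted p = 0.315). With 6 arrays in 2 genotypes, 20 probe sets had r above 0.99, and the values are a description of these arrays.

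**Figure D5:**
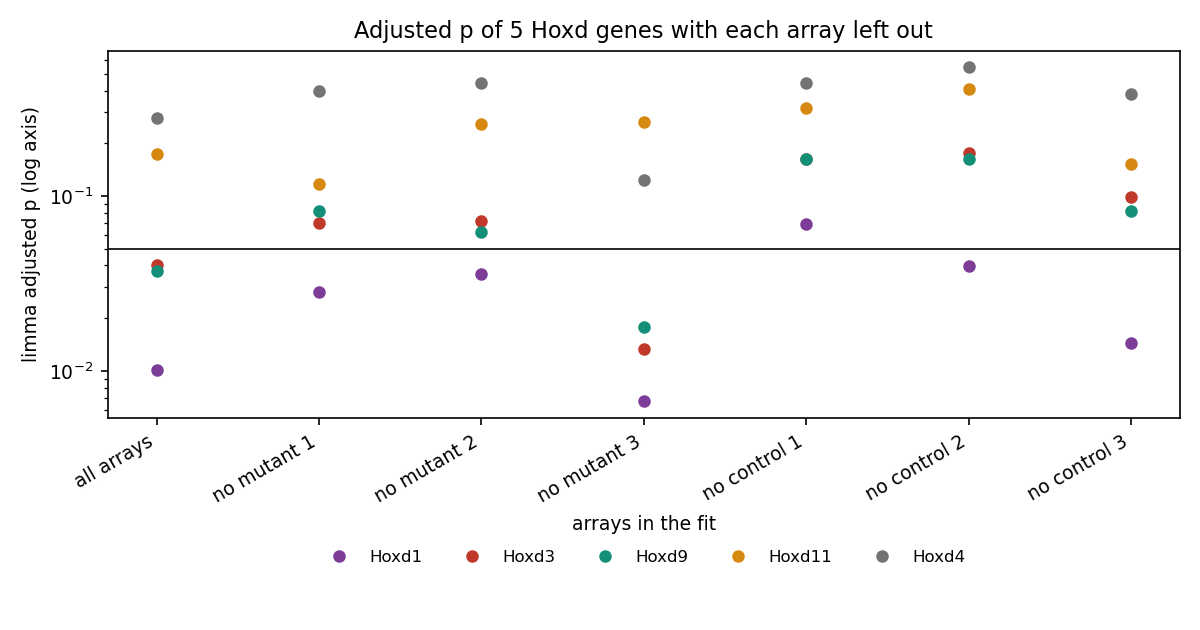
Limma adjusted p (y axis, log scale) of Hoxd1, Hoxd3, Hoxd9, Hoxd11 and Hoxd4 in the fit on all 6 arrays and with each array left out in turn (x axis); the line marks 0.05. Hoxd1 crosses the line without control 1, at 0.0691, and Hoxd3 and Hoxd9 stay under it with all arrays and without mutant 3.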

How the data were processed

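Expression was measured on 6 arrays, 3 of mutant and 3 of control pools, from 150 ng of total RNA per the labels' protocols. The authors deposited intensity values made with RMA, per the submitters' processing notes (its version, chip description and any filter not given in the sources used here). On a linear scale they run from 20.5 to 21070, and their precision is limited by the number of arrays.

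The log2 of these values was used as it was, unfiltered. Of 18064 probe sets, 16311 had 1 symbol, 734 several and 1019 none, and 16284 matched RefSeq by gene ID, with 0 symbols changed. All 16311 went into 1 fit (limma 3.58.1, R 4.3.3, lmFit and eBayes, no covariate), and p-values were adjusted over the 16311 by Benjamini and Hochberg. The p-values rest on the spread between pools. The code was tested on simulated data. In lists of other genes, the probe set with the highest mean stood for its gene. Named were all Hoxd genes, Taf10, list members past the test or else up to 4 with the smallest p, paralogues, and the 3 probe sets most like Hoxd1; others are marked as named after their values were seen. Members, lists and motifs were chosen with earlier results of these data known. The alternatives were other normalizations, a filter on level, all probe sets, another variance prior, a replicate block, Xist as a covariate, array weights, other thresholds and each array left out; cyclic loess was added after seeing the data.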

Additional observations from a re-analysis of the deposited data

How the results depend on the processing

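Hoxd1, Hoxd3, Hoxd4, Hoxd9, Hoxd11, Hoxd12 and Hoxd13 kept a positive change under all alternatives that measured them. Several of these leave the log2 change as it is and could not turn its sign. They are the filter on level, all probe sets, the other variance prior, the replicate block and the other thresholds. Hoxd8 turned to 0.0027 with quantile normalization, 0.0071 with array weights, 0.0463 without mutant 3 (-0.0981 to 0.0463 with 1 array left out) and 0.001 with cyclic loess, and Hoxd10 to -0.0135 without control 2 (up to 0.401 without mutant 1). Atp5g3 turned to 0.0389 with quantile normalization, 0.0369 with cyclic loess and 0.0240 without mutant 2 (down to -0.0552), Lnpk to 0.0155 with quantile normalization, 0.11 with array weights and 0.14 without mutant 3 (down to -0.115), and Evx2 to 0.0051 with Xist as a covariate and 0.0046 without control 3 (down to -0.0686). The cause was not tested. The 3 Hoxd genes called higher became 1 with Xist as a covariate, 5 with array weights, which called 24.1% of all probe sets, and 0 at an adjusted p under 0.01; the count of 0 lower held throughout. With 1 array left out they ran from 0 to 3, while 0.307% to 13% of all probe sets were called. Of all probe sets, 7.29% were called with the replicate block, 3.44% with Xist as a covariate, 11.3% at 0.1 and 0.944% at 0.01. The filter on level gave 9.84% of the 9787 probe sets it left, and the main fit 5.96%. The counts above and below stand beside these shares and are not read as results about the lists. Of the 28 other Hox genes, 4 higher became 7 with the replicate block, 12 with array weights and 1 at 0.01, and 1 to 8 with 1 array left out; 1 lower became 3 with array weights, 2 at an adjusted p under 0.1, and 0 to 2. Of the regulators, 1 higher became 3 with array weights, 0 at 0.01 and 0 to 1; 4 lower became 2 with Xist as a covariate, 10 with array weights, 7 at 0.1, 2 at 0.01 and 1 to 7. Of the flanking genes, counted with Mir10b, 0 higher became 1 with array weights. In that list 0 lower became 1 with the filter on level, with array weights and at 0.1, and 0 to 1 with 1 array left out. With the replicate block 3 Hoxd genes were higher; same-numbered arrays correlated at 0.142, 0.087 and 0.308 in their deviations from the group means, and 1 of 3 mutants correlated best with its own number, so the numbers were not taken as pairs. The filter on level left out Hoxd12, Hoxd13, Mir10b and Cyp26a1, among others. Low signal limits their readings.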
